A study of Mus musculus with 2 samples.

Results

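The 7 genes described here are H2-Aa, H2-Ab1, H2-Eb1, Cd74, H2-DMa, H2-DMb1 and Ciita, which together make, load and switch on MHC class II. They were taken by name, and all 7 were among the 15526 genes of the expression table. The table held 1344 single lung cells from 2 samples of 1 group. The cells came from old p16-FDR mice of the C57BL/6 strain, aged 20 to 22 months. All of these mice carried an allele at p16 (Cdkn2a) encoding FLP recombinase and the receptor for diphtheria toxin joined to mCherry, a red reporter, and all cells had been sorted as mCherry-positive. No young or unsorted group was part of the data. The values therefore describe sorted cells, and each comparison was made between cell types within them. A Cdkn2a transcript was captured in 33.4% of cells and an mCherry transcript in 5.43%.

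MHC class II molecules display peptides from internalised proteins to CD4 T cells. An alpha and a beta chain (here the H2-Aa and H2-Ab1 pair, and H2-Eb1, the beta chain of a second molecule) assemble in the endoplasmic reticulum with the invariant chain CD74, which occupies the groove. In endosomes CD74 is degraded, and the DM heterodimer, encoded by H2-DMa with H2-DMb1 or H2-DMb2, removes its last fragment so that peptide can bind. Ciita encodes the transactivator that controls all of these genes, acting through proteins bound at conserved X and Y boxes in their promoters. Dendritic cells, B cells and many macrophages make class II at all times. Capillary endothelium of the lung is known to carry some as well, and interferon gamma induces it in many other cell types.

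Of the members, 5 lie in the class II region of chromosome 17 (GRCm38, GENCODE release M21): H2-DMa at chr17:34119541-34139101, H2-DMb1 at chr17:34153072-34160230, H2-Ab1 at chr17:34257689-34269419 and H2-Eb1 at chr17:34305867-34316674, all on the plus strand, and H2-Aa at chr17:34282744-34287823 on the minus strand. Promoter sequences from RefSeq (GRCm38.p6, 250 bases before to 50 after the start) were at hand for 4 of the 7 members. Those of H2-Aa, H2-Eb1 and H2-DMb1 are shown because they share an arrangement of letters, an X box followed by a Y box, through which 1 transactivator can reach several genes. Each stretch is the 120 bases before the RefSeq start on the gene's strand, 5′ to 3′. The capitals mark matches to the X-box letters CTNGNAACT and the Y-box letters TGATTGG. H2-Aa spans chr17:34287824-34287943 on the minus strand, H2-Eb1 chr17:34305747-34305866 on the plus strand and H2-DMb1 chr17:34153071-34153190 on the plus strand.
H2-Aa: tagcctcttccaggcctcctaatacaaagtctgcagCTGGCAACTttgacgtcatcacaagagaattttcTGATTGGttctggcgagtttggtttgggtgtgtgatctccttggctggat
H2-Eb1: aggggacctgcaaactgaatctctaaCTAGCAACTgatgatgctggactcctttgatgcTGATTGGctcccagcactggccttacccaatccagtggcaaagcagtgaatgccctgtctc
H2-DMb1: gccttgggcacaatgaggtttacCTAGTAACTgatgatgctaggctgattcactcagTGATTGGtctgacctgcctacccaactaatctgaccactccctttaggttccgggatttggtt

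The letters searched were settled after these promoters had been read, so the matches are a description. On either strand the X letters occurred in 4.10% and the Y letters in 7.82% of 32851 promoters of the same length, and both occurred in 0.350%. The X letters followed by the Y letters on the gene's strand, with starts 25 to 40 bases apart, occurred in 5 promoters (0.0152%). These were the promoters of H2-Aa (starts 34 bases apart), H2-Eb1 (33), H2-DMb1 (34), BC051142 and 1700048F04Rik. The 2 H2-DMa windows held neither set of letters.

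The cells fell into 13 clusters, which marker lists grouped into 11 classes, with the 7 members and the rest of their pathway kept out of the clustering. Each cell had between 2517 and 49467 UMIs (unique molecular identifiers, which count captured molecules). Cell names carried 2 library numbers, with 1145 cells in library 1 and 199 in library 2, that match neither sample's title. Both libraries were therefore pooled as 1 sample, values within each are given as a check, and no barcode was shared between them. Library 2 was mostly endothelial (154 of 199 cells) and had 1 B-cell-like cell. A level below is the summed UMIs of a gene per 10000 UMIs of the cells of a class, with an exact Poisson 95% interval. Because 3′ sequencing counts 1 tag per molecule, levels of different genes can be set side by side without a length correction. Since cells could not be tied to the 2 labelled samples, they count as 1 sample and no test was made: intervals cover counting error only, not differences between animals. No doublets were removed for these levels, and 33 cells (2.46%) carried markers of 2 or more lineages. Dendritic cell, alveolar macrophage and plasma cell markers were not scored for that count.

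By summed UMIs, class II was highest in a Ccl17- and Mmp12-led class, followed by interstitial-macrophage-like and B-cell-like cells. The Ccl17- and Mmp12-led class (68 cells) stayed unnamed, because 7 of 14 dendritic cell markers and 6 of 12 interstitial macrophage markers were detected in it. Its cells held the 7 genes at 718 UMIs per 10000 in sum (711 to 724). Interstitial-macrophage-like cells (112) held 351 (346 to 355) and B-cell-like cells (82) held 241 (237 to 245). These 3 classes did not overlap in their counting intervals. Within library 1 the order was the same, at 727, 368 and 240. In library 2 the first 2 classes had 676 and 261, and the lone B-cell-like cell had 426. The order of interstitial-macrophage-like and B-cell-like cells was not stable: the median over single cells was 245 in interstitial-macrophage-like and 260 in B-cell-like cells.

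Below them came alveolar-macrophage-like cells (20 cells) at 66.3 (62.9 to 69.8) and plasma-cell-like cells (24) at 52.3 (50.6 to 54.0). One alveolar-macrophage-like cell carried much of that signal, and without it the level was 43.1. The place of plasma-cell-like cells in this order depends on the scale, because immunoglobulin genes took 66.3% of their UMIs. Per 10000 of their other UMIs, Cd74 alone stood at 148. Next were the Plvap- and Vwf-led endothelial cluster (150 cells) at 20.6 (19.7 to 21.4) and an epithelial-gene-led class (17) at 19.6 (18.3 to 20.97), which did not differ beyond counting error. The epithelial-gene-led value also rested on 1 cell, and was 8.75 without it. T-cell-like cells (155) had 4.65 (4.12 to 5.22), fibroblast-like cells (121) 2.51 (2.20 to 2.85), serous-cavity-macrophage-like cells (49) 2.05 (1.68 to 2.46), the Car4-led endothelial cluster (454) 1.25 (1.11 to 1.40) and contractile-mesenchymal-like cells (92) 0.554 (0.383 to 0.774). The intervals of fibroblast-like and serous-cavity-macrophage-like cells overlapped. Leaving out the highest cell of each brought T-cell-like cells to 3.31, fibroblast-like cells to 0.837, serous-cavity-macrophage-like cells to 1.53 and the Car4-led cluster to 0.879.

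**Figure D1:**
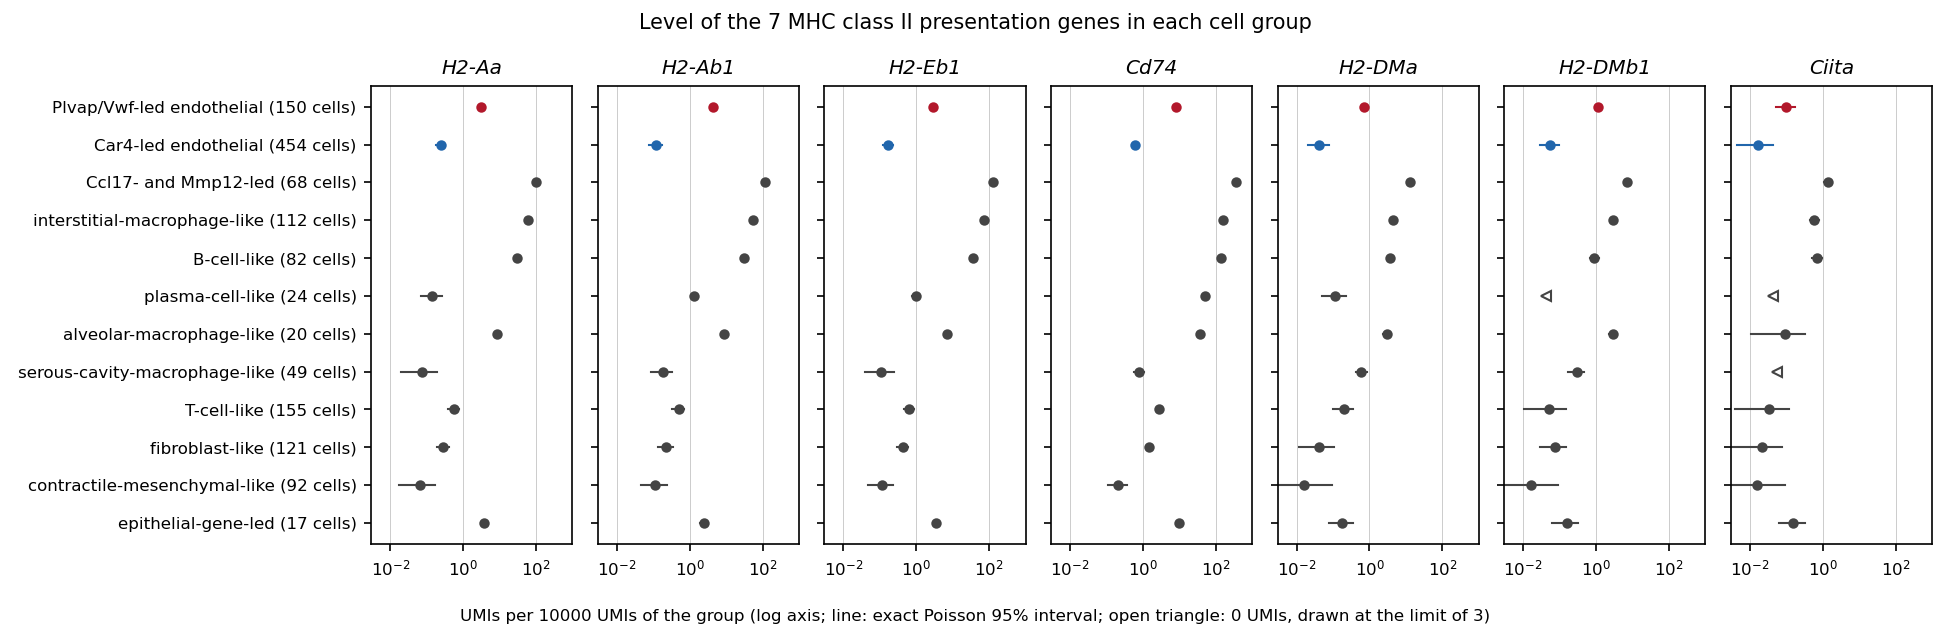
Level of each of the 7 genes (panels) in 12 cell groups (rows), in UMIs per 10000 UMIs on a log axis, with exact Poisson 95% intervals as lines and open triangles where no UMI was found. The Plvap- and Vwf-led endothelial cluster (top row) lies to the right of the Car4-led cluster in every panel, and Cd74 stays high in plasma-cell-like cells while the other members drop away.

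Cd74, the invariant chain (GRCm38, chr18:60803848-60812652, plus strand), was the most abundant member in each of these 3 classes. In the Ccl17- and Mmp12-led class Cd74 stood at 353 (349 to 358), H2-Eb1 at 127 (124 to 129), H2-Ab1 at 117 (115 to 120) and H2-Aa at 99.1 (96.8 to 101). In interstitial-macrophage-like cells the same genes stood at 157 (154 to 160), 71.3 (69.5 to 73.2), 55.3 (53.6 to 56.9) and 59.1 (57.4 to 60.8). In B-cell-like cells they stood at 140 (137 to 143), 35.8 (34.3 to 37.4), 30.8 (29.4 to 32.2) and 29.2 (27.9 to 30.6). The Cd74 level of interstitial-macrophage-like cells depended on which cells the class held, at 116 without cells that carried markers of 2 or more lineages and 265 with 30 components in the clustering, so its order against B-cell-like cells (140) was not settled. Single cells differed widely: the summed level ran from 80.4 to 443 per 10000 among B-cell-like cells, with the median of 260 given above. It ran from 0 to 1303 among interstitial-macrophage-like cells, with a median of 245, and from 0 to 1814 in the Ccl17- and Mmp12-led class, with a median of 776. Every B-cell-like cell had all 4 of H2-Aa, H2-Ab1, H2-Eb1 and Cd74, against 87 of 112 interstitial-macrophage-like cells and 60 of 68 Ccl17- and Mmp12-led cells.

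The peptide loading genes were lower than the chain genes in each of the 3. H2-DMa stood at 12.98 (12.1 to 13.9) in the Ccl17- and Mmp12-led class, 4.35 (3.90 to 4.83) in interstitial-macrophage-like cells and 3.71 (3.24 to 4.22) in B-cell-like cells. H2-DMb1 stood at 7.11 (6.50 to 7.77), 2.94 (2.57 to 3.34) and 0.893 (0.671 to 1.17) in the same order. H2-DMb2, the neighbouring gene for a nearly identical DM beta chain, ran the other way, at 4.25 (3.75 to 4.80) in B-cell-like cells. It was lower in the Ccl17- and Mmp12-led class, with an interval of 1.68 to 2.36, and stood at 0.152 (0.0786 to 0.266) in interstitial-macrophage-like cells. Reads from stretches that the 2 DM beta genes share cannot be placed, so their split is uncertain. B-cell-like cells also carried H2-Oa at 1.97 (1.63 to 2.36) and H2-Ob at 2.91 (2.497 to 3.37), the chains of DO, which holds DM back. Ciita, the transactivator (GRCm38, chr16:10480059-10528418, plus strand), stood lowest of the members in these classes, at 1.36 (1.10 to 1.67), 0.596 (0.438 to 0.792) and 0.695 (0.501 to 0.939) in the Ccl17- and Mmp12-led, interstitial-macrophage-like and B-cell-like classes.

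Across 12702 genes detected in at least 1% of cells, a gene was counted as higher or lower when its level, plus 0.1, differed at least 2-fold between groups. All 7 members were higher in the Ccl17- and Mmp12-led class than in endothelial-like cells, where 9.82% of all genes were. All 7 were higher in interstitial-macrophage-like cells, against 9.64% of all genes, and 6 of 7 (all but Ciita) in alveolar-macrophage-like cells, against 11.2%. In B-cell-like cells 6 of 7 were higher, against 9.03% of all genes, and H2-DMb1 was not (log2 0.93). Of 48 further genes listed for the class II pathway, 43 were in the table, and 17, 16 and 18 of them were higher in the 3 classes than in endothelial-like cells, while 5, 2 and 10 were lower, against 23.6%, 15.4% and 21.4% of all genes. The median log2 difference over the members was 6.19, 5.11 and 4.26, against -0.41, -0.22 and -0.26 over all genes. Among those higher in each of the 3, chosen for naming after their values were seen, were Ctss and Ctsh, proteases of the endosome, Cd83, which stabilises surface class II, Cd86 and Cd80, which costimulate T cells, and Spi1 and Irf8, transcription factors of myeloid and B cells. Set against the interstitial-macrophage-like class, the Ccl17- and Mmp12-led class was at least 2-fold higher in 5 of 7 members (3.93% of all genes) and lower in 0 (8.49%), and H2-Aa and H2-Eb1 differed by 1.68-fold (1.62 to 1.74) and 1.78-fold (1.72 to 1.84).

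Plasma-cell-like cells, named from all 7 of their markers, held all 7 members lower than B-cell-like cells, with Cd74 the highest of them. Plasma cells are known to silence Ciita. Cd74 stood at 49.8 (48.1 to 51.4) in plasma-cell-like cells against 140 in B-cell-like cells, with at least 1 UMI in every plasma-cell-like cell. H2-Aa stood at 0.141 (0.0677 to 0.259) against 29.2, H2-Ab1 at 1.33 (1.07 to 1.62) against 30.8, and H2-DMa at 0.113 (0.0487 to 0.222) against 3.71. The chains were lower but not absent: H2-Ab1 had a UMI in 87.5% and H2-Eb1 in 70.8% of plasma-cell-like cells, against all B-cell-like cells. Ciita, H2-DMb1 and H2-DMb2 had 0 UMIs in plasma-cell-like cells, which allows up to 0.0423 per 10000. All 7 members were at least 2-fold lower in plasma-cell-like than in B-cell-like cells, as were 32.8% of all genes, and none was higher (1.61%).

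That background is high, and immunoglobulin genes took 66.3% of the UMIs of plasma-cell-like cells against 1.42% in B-cell-like cells. Per 10000 of the remaining UMIs, a scale added after these values had been seen, Cd74 stood at 148 (143 to 153) in plasma-cell-like cells and 142 (139 to 145) in B-cell-like cells. On this scale the intervals of Cd74 in the 2 classes overlapped. H2-Aa stood at 0.419 (0.201 to 0.770) in plasma-cell-like cells and 29.6 (28.3 to 31.0) in B-cell-like cells, H2-Ab1 at 3.94 (3.18 to 4.82) and 31.2 (29.8 to 32.6), and H2-Eb1 at 2.89 (2.25 to 3.66) and 36.3 (34.8 to 37.9). The chain genes thus stayed lower on either scale. The 0 counts of Ciita and H2-DMb1 allow up to 0.126 per 10000 on this scale, against 0.705 and 0.906 in B-cell-like cells.

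Macrophages were not uniform. Alveolar-macrophage-like cells had H2-DMb1 at 2.94 (2.27 to 3.75), with a UMI in every cell, next to 2.94 in interstitial-macrophage-like cells, although their Cd74 was 35.7 (33.3 to 38.3, and 23.6 without the highest cell) against 157. Serous-cavity-macrophage-like cells, named from all 10 of their markers, had Cd74 at only 0.785 (0.568 to 1.06), H2-Aa at 0.0731 and H2-Ab1 at 0.183. H2-DMa was nearly as frequent there as Cd74, at 0.603 (0.415 to 0.847), with a UMI in 38.8% of these cells. In these cells 4 of 7 members were at least 2-fold lower than in endothelial-like cells (21.7% of all genes), and none was higher (7.89%). T-cell-like cells had 2 of 7 lower (19.5%) and none higher (9.17%), and fibroblast-like and contractile-mesenchymal-like cells each had 6 of 7 lower (12.8% and 11.9%) and none higher (10.8% and 11.1%). The endothelial-like level pools 2 clusters that differ widely in class II. Against the larger, Car4-led cluster alone, T-cell-like cells had more Cd74 (2.68 against 0.604) and H2-Ab1 (0.496 against 0.117). H2-DMb1 alone went the other way, at 0.0496 against 0.0545. Cd74 in fibroblast-like cells, at 1.44, also lay above the Car4-led level. Plasma-cell-like cells had 1 of 7 higher, Cd74, than endothelial-like cells (2.55%) and 2 lower (47.1%). The epithelial-gene-led class had 3 of 7 higher (6.06%) and 1 lower (26.9%), with 1 cell deciding much of its level. None of the members was lower in alveolar-macrophage-like cells (20.6%).

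Endothelial cells were the largest class, with 604 cells and all 14 endothelial markers detected, and class II divided them by subtype. One cluster was led by Car4 (454 cells, 322 in library 1 and 132 in library 2, all 7 aerocyte markers). Aerocytes are the Car4-high capillary cells of gas exchange. The other was led by Plvap and Vwf (150 cells, 128 and 22, all 6 general capillary markers, with 2 of 8 larger-vessel markers). Vwf encodes a clotting factor of larger vessels and Gpihbp1 a capillary protein that holds lipoprotein lipase. In the Plvap- and Vwf-led cluster Cd74 stood at 8.25 (7.74 to 8.78), against 0.604 (0.509 to 0.711) in the Car4-led cluster. H2-Ab1 stood at 4.30 (3.94 to 4.70) against 0.117 (0.0780 to 0.170), H2-Aa at 3.09 (2.78 to 3.42) against 0.239 (0.181 to 0.310), and H2-Eb1 at 2.93 (2.63 to 3.26) against 0.172 (0.123 to 0.233). H2-DMb1 stood at 1.16 (0.973 to 1.37) against 0.0545 (0.0290 to 0.0932), and H2-DMa at 0.727 (0.582 to 0.898) against 0.0419 (0.0201 to 0.0771). Ciita had 12 UMIs in the Plvap- and Vwf-led cluster and 4 in the Car4-led cluster, at 0.101 (0.0524 to 0.177) and 0.0168 (0.00457 to 0.0429).

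The summed level was 16.5 times as high in the Plvap- and Vwf-led as in the Car4-led cluster (14.6 to 18.7), and the ratio of single members ran from 6.05 (1.83 to 25.7) for Ciita to 36.7 (25.1 to 55.7) for H2-Ab1. It held in each library: 20.6 against 1.46 in library 1 and 20.4 against 0.863 in library 2. Of the 7 members, 6 were at least 2-fold higher, as were 3.55% of all genes, and Ciita was not (log2 0.79). The median log2 difference was 3.23 over the members and 0 over all genes. Leaving out 33 cells with markers of 2 or more lineages gave a ratio of 22.6, and leaving out only the highest cell of each cluster gave 22.4. These are not separate checks: only 3 of the 33 cells were endothelial-like, and the highest cell of each cluster was among them. The highest cell of the Car4-led cluster held 88 of its 297 class II UMIs, together with 9 UMIs of the B-cell gene Cd79a, and the highest of the Plvap- and Vwf-led cluster held 119 with 8 of Cd79a.

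Assignment of endothelial-like cells by the highest of Car4, Gpihbp1 and Vwf gave the same order with smaller differences. It was not independent of the clusters: 70 of 72 Gpihbp1-assigned and all 16 Vwf-assigned cells lay in the Plvap- and Vwf-led cluster. The 72 Gpihbp1-assigned cells held 25.5 (24.1 to 26.9), the 16 Vwf-assigned cells 20.6 (17.8 to 23.8) and the 507 Car4-assigned cells 4.05 (3.82 to 4.29). Of the 7 members, 6 were at least 2-fold higher in Gpihbp1-assigned than in Car4-assigned cells (3.43% of all genes) and none was lower (2.53%). The summed level of the 16 Vwf-assigned cells was 5.09 times that of Car4-assigned cells, a value that was 10.6 in library 2 (from 2 Vwf-assigned cells), 9.26 as a mean over cells and 3.42 with endothelial cells assigned by markers. Where the other 2 genes had to be at 0 UMIs, 300 Car4-assigned cells held 0.606 and 11 Gpihbp1-assigned cells 38.1. Only 1 Vwf-assigned cell was left under that rule, and it had 0 class II UMIs. Between Vwf-assigned and Gpihbp1-assigned cells 0 of 7 members differed by 2-fold or more (6.71% of all genes higher and 8.71% lower). Cd74 was 0.595 times as high in Vwf-assigned cells (0.450 to 0.776), while the interval for H2-Ab1 (1.24, 0.906 to 1.66) included 1. The assignment lay within 1 UMI of another in 21 cells. Car4-assigned cells were a mixture: 449 of them lay in the Car4-led cluster, at 1.26 (1.12 to 1.41), and 58 in the Plvap- and Vwf-led cluster, at 16.1 (15.1 to 17.2). When endothelial-like cells were clustered alone, 3 Car4-rich clusters had 0.972, 0.841 and 0.856, and the fourth, with 147 cells, had 21.5 (20.7 to 22.4). The 3 Car4-rich clusters divided largely by library (219 and 105 cells of library 1 in the first 2, and 126 of 127 of library 2 in the last), and their class II intervals overlapped.

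Most cells of the Plvap- and Vwf-led cluster took part. At least 1 class II UMI was found in 132 of 150 cells (88.0%, exact binomial 95% interval 81.7% to 92.7%), against 126 of 454 in the Car4-led cluster (27.8%, 23.7% to 32.1%). Thinned to 2500 UMIs per cell, the shares were 81.1% and 16.8%. All 4 of H2-Aa, H2-Ab1, H2-Eb1 and Cd74 occurred together in 79 of 150 cells, against 2 of 454. In single cells the summed level ran from 0 to 138 with a median of 15.1 in the Plvap- and Vwf-led cluster, and from 0 to 115 with a median of 0 in the Car4-led cluster. The 10 highest cells held 27.7% of the UMIs in the Plvap- and Vwf-led cluster, against 46.5% in the Car4-led cluster.

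**Figure D2:**
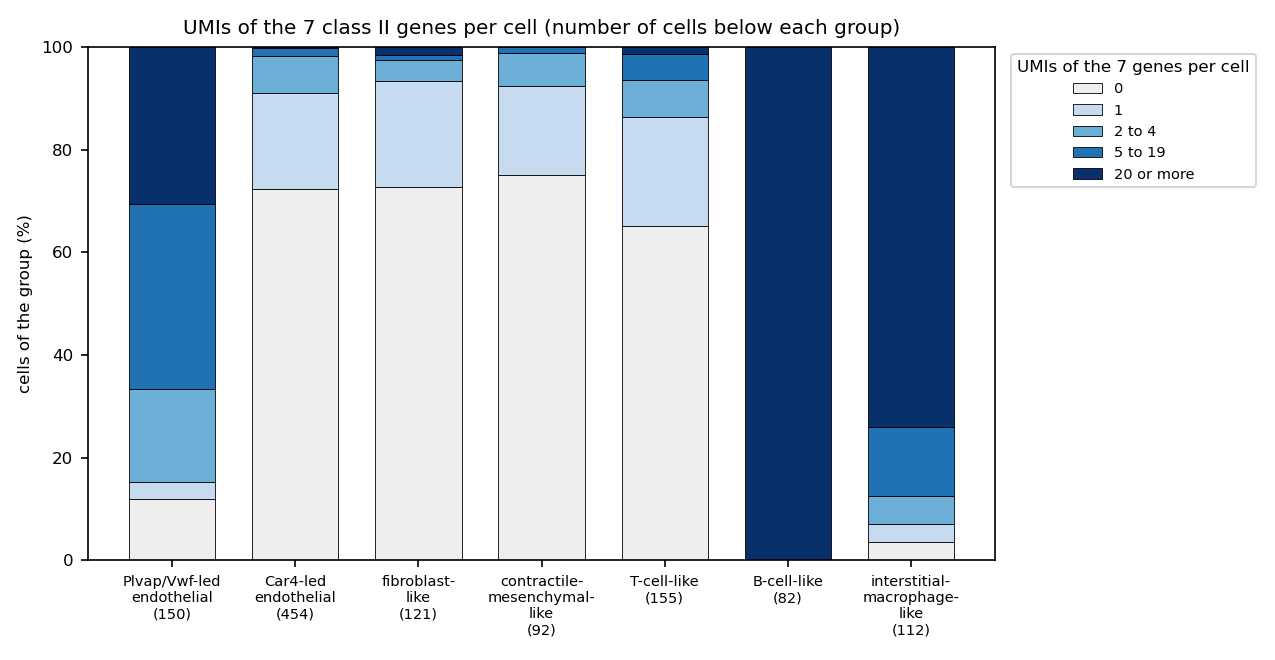
Share of the cells of 7 groups (stacked bars, each adding to 100%) by the number of UMIs of the 7 class II genes in a cell. In the Plvap- and Vwf-led cluster 100 of 150 cells had 5 or more, against 8 of 454 in the Car4-led cluster, 3 of 121 fibroblast-like cells and 1 of 92 contractile-mesenchymal-like cells.

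RNA released by other cells enters droplets and gives every cell type a like trace of abundant genes, so the endothelial signal was set beside that of other cells. Fibroblast-like and contractile-mesenchymal-like cells, which are not known as constant class II producers, gave a first comparison. How much of their own class II signal was free RNA was not tested. Thinned to 2500 UMIs, 81.1% of the Plvap- and Vwf-led and 16.8% of the Car4-led cluster had a class II UMI, against 12.1% of fibroblast-like and 14.2% of contractile-mesenchymal-like cells. Median depths were 7126 and 5108 UMIs in the 2 endothelial clusters, against 7533 and 6071.5 UMIs in the mesenchymal classes. Before thinning, the Car4-led share of 27.8% (23.7% to 32.1%) overlapped those of fibroblast-like (27.3%, 19.6% to 36.1%) and contractile-mesenchymal-like cells (25%, 16.6% to 35.1%), and what free RNA adds to the Car4-led level was not tested. The Plvap- and Vwf-led share lay above both.

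Genes that mark the main class II producers gave a second comparison, each as a percentage of its level in all cells outside the endothelial-like class. In the Plvap- and Vwf-led cluster the 7 members stood at 10.1% (Cd74, 9.47 to 10.8) to 81.6% (H2-DMb1, 67.7 to 97.8), with a median of 17.97%. A set of 8 genes of B and myeloid cells (Cd79a, Cd79b, C1qa, C1qb, C1qc, Lyz2, Tyrobp and Fcer1g) stood at 0% to 2.12%, with a median of 0.389%. In the Car4-led cluster the members stood at 0.490% to 5.25% with a median of 1.08%, and the 8 genes at 0.0903% to 1.40% with a median of 0.172%. For fibroblast-like cells the medians were 1.39% and 0.224%, and for contractile-mesenchymal-like cells 0.429% and 0.191%. Without cells that carried markers of 2 or more lineages the medians were 16.999% against 0.201% in the Plvap- and Vwf-led cluster and 0.793% against 0.129% in the Car4-led cluster. In library 1 they were 18.95% against 0.402% in the Plvap- and Vwf-led cluster, and in library 2 11.05% against 0%. The immunoglobulin light chain Igkc, the most abundant of the B-lineage genes outside endothelium, stood at 0.146% in the Plvap- and Vwf-led and 0.140% in the Car4-led cluster. The club cell gene Scgb1a1 stood at 1.34 UMIs per 10000 (0.446%) in the Plvap- and Vwf-led and 1.35 (0.451%) in the Car4-led cluster. The intervals of both overlapped between the clusters, in which the summed class II level differed 16.5-fold.

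The marker genes of other cells were not all so low. Cd3e, a T-cell gene, stood at 11.3% in the Plvap- and Vwf-led cluster, from 5 UMIs in 0.667% of its cells. Ptprc, the pan-leukocyte gene, stood at 3.28% and Fcer1g at 2.09%. Lyz2 stood at 0.249% in the Plvap- and Vwf-led cluster (0.164 to 0.362) against 0.119% (0.0775 to 0.174) in the Car4-led cluster. The haemoglobin gene Hbb-bs was higher in the Plvap- and Vwf-led cluster than outside endothelium, with 1491 UMIs that lay in 5.33% of its cells. What these traces add to the class II levels was not tested.

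**Figure D3:**
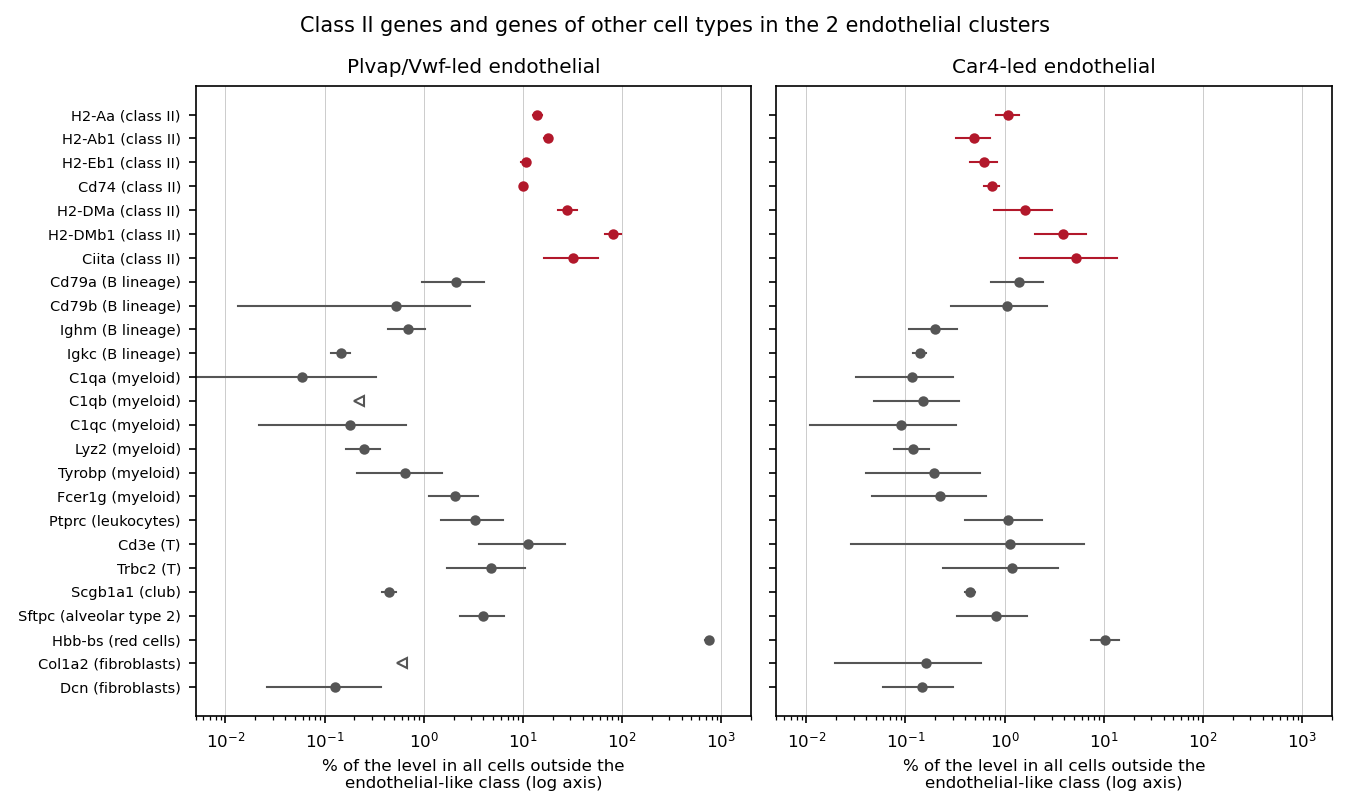
Level of the 7 class II genes (red) and of 18 genes of other cell types (grey) in the Plvap- and Vwf-led cluster (left) and the Car4-led cluster (right), as a percentage of the level in all cells outside the endothelial-like class, on log axes with exact 95% intervals (open triangles: 0 UMIs, drawn at the upper bound). In the left panel the class II genes lie at 10.1% to 81.6% and 8 B and myeloid genes at 0% to 2.12%.

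Cell by cell, class II in the Plvap- and Vwf-led cluster was seldom joined by transcripts of 8 leukocyte genes. Among its 100 cells with 5 or more class II UMIs, 86 had 0 UMIs over 8 leukocyte genes (Cd79a, Cd79b, C1qa, C1qb, C1qc, Tyrobp, Fcer1g and Ptprc), 13 had 1 or 2, and 1 had 3 or more. Lyz2, Igkc and Ighm were not among these 8 genes, so a cell with 0 UMIs over them may still hold those transcripts. The 86 cells alone held class II at 25.7 per 10000. The leukocyte genes together stood at 0.259 per 10000 in the 100 cells and 0.614 in the other 50, and the 100 cells were also deeper, with a median of 8360.5 UMIs against 4819.5. In the other groups few cells had 5 or more class II UMIs, and those with 0 UMIs over these genes were 7 of 8 in the Car4-led cluster, 2 of 3 in fibroblast-like, 1 of 1 in contractile-mesenchymal-like and 1 of 10 in T-cell-like cells, which express Ptprc themselves.

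The make-up of the class II message differed as well. Per 100 UMIs of Cd74, the Plvap- and Vwf-led cluster held 52.2 of H2-Ab1 (46.8 to 58.2), 14.1 of H2-DMb1 (11.7 to 16.8) and 8.82 of H2-DMa (6.99 to 11.005). All cells outside endothelium held 29.4, 1.74 and 3.17. B-cell-like cells held 21.9 (20.9 to 23.1), 0.638 (0.479 to 0.833) and 2.64 (2.31 to 3.02), interstitial-macrophage-like cells 35.2 (34.0 to 36.4), 1.87 (1.64 to 2.13) and 2.77 (2.48 to 3.08), and the Ccl17- and Mmp12-led class 33.2 (32.4 to 34.0), 2.01 (1.84 to 2.20) and 3.67 (3.43 to 3.93). The endothelial ratios of these 3 genes lay above all of these classes beyond counting error. H2-Aa (37.4, 33.1 to 42.3) and H2-Eb1 (35.6, 31.4 to 40.3) lay within the range of the same classes.

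In the Plvap- and Vwf-led cluster H2-Ab1 stood at 51.9 per 100 Cd74 UMIs in library 1 and 53.8 in library 2, against 28.9 and 32.4 in all cells outside endothelium. H2-DMa stood at 8.48 (6.52 to 10.9) and 10.4 (6.02 to 16.9), against 3.17 in each library outside endothelium, and H2-DMb1 at 14.96 (12.2 to 18.1) and 9.83 (5.60 to 16.2), against 1.69 and 2.08. The interval of H2-DMb1 in library 2 overlapped that of alveolar-macrophage-like cells (8.24, 6.30 to 10.6). Without cells that carried markers of 2 or more lineages, H2-Ab1 stood at 54.4 and H2-DMb1 at 15.1. Among the B-cell-like, interstitial-macrophage-like, Ccl17- and Mmp12-led and alveolar-macrophage-like classes, the last came nearest for the DM genes. It held 8.62 of H2-DMa and 8.24 of H2-DMb1, but 24.7 of H2-Ab1. Serous-cavity-macrophage-like cells, where H2-DMa was nearly as frequent as Cd74, held more H2-DMa per Cd74 UMI than the endothelial cluster. In the Car4-led cluster H2-Ab1 stood at 19.4 (12.5 to 29.3) per 100 Cd74 UMIs and H2-DMb1 at 9.03 (4.69 to 15.9), from 13 UMIs.

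**Figure D4:**
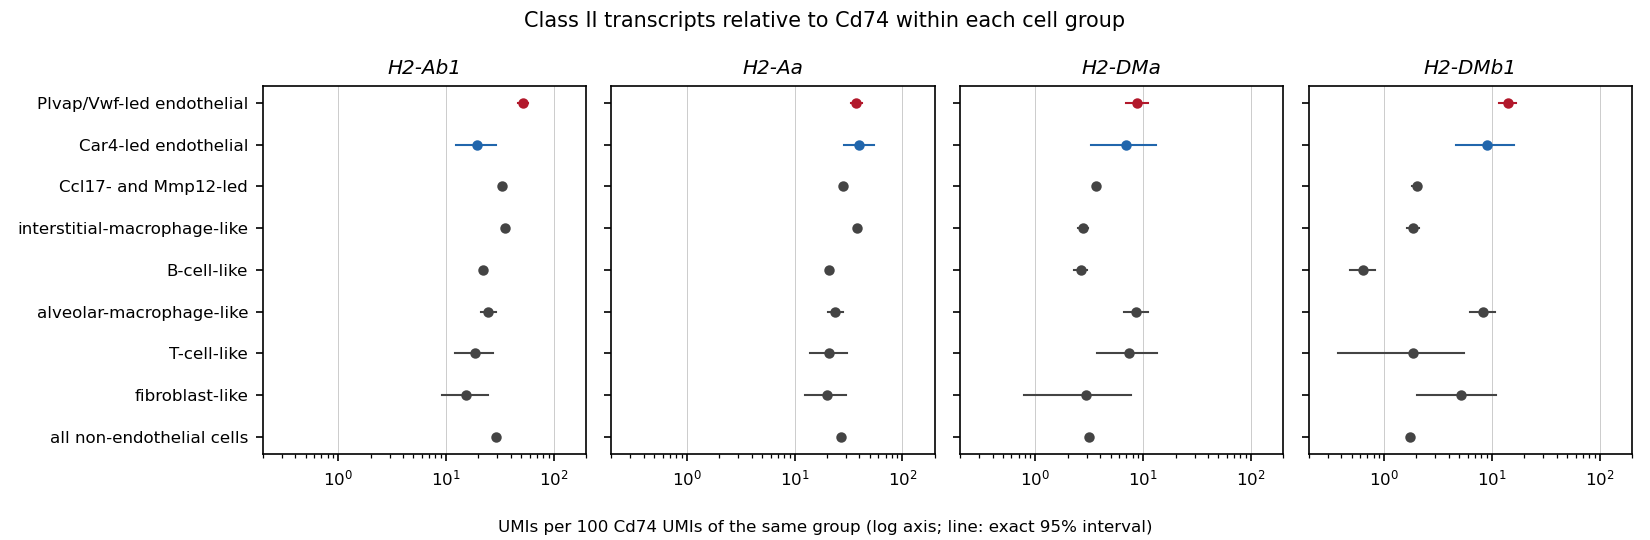
UMIs of H2-Ab1, H2-Aa, H2-DMa and H2-DMb1 per 100 Cd74 UMIs in 9 cell groups, on log axes with exact 95% intervals. The Plvap- and Vwf-led cluster holds 52.2 of H2-Ab1 and 14.1 of H2-DMb1, against 29.4 and 1.74 in all non-endothelial cells.

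Of the 43 listed pathway genes, 1 was at least 2-fold higher in the Plvap- and Vwf-led than in the Car4-led cluster (3.55% of all genes), and 1 was lower (1.04% of all genes), with a median log2 difference of 0.01. The count of 1 higher gene depended on the value added before the ratio, and was 10 with 0.01 and 0 with 1. The higher 1 was Ifngr1, a chain of the interferon gamma receptor, at 3.71 (3.37 to 4.08) against 1.53 (1.37 to 1.69). The partner chain Ifngr2 went the other way without reaching 2-fold, at 0.761 (0.612 to 0.936) against 1.58 (1.43 to 1.75). The lower 1 was Prdm1, a repressor of Ciita in plasma cells, at 0.533 (0.409 to 0.682) against 1.71 (1.55 to 1.88). Irf1, an interferon-induced transcription factor, stood at 2.05 in the Plvap- and Vwf-led and 2.04 in the Car4-led cluster. The pathway genes named here other than Ifngr1 and Prdm1 were chosen after their values were seen.

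The costimulatory genes Cd80 and Cd86 had 0 UMIs in 604 endothelial-like cells. Other listed genes of these kinds were detected: Cd274, which encodes a ligand of an inhibitory receptor, stood at 0.186 (0.117 to 0.282) in the Plvap- and Vwf-led and 0.298 (0.232 to 0.375) in the Car4-led cluster, and Cd40 at 0.0846 (0.0406 to 0.156) and 0.109 (0.0712 to 0.160). The lysosomal protease Ctsd stood at 3.96 (3.61 to 4.33) and 5.4 (5.11 to 5.70) in the 2 clusters, and Ctsb at 1.73 (1.504 to 1.99) and 1.698 (1.54 to 1.87). Ctss, the protease that trims CD74 in B cells and dendritic cells, stood at 0.0423 in the Plvap- and Vwf-led and 0.0126 in the Car4-led cluster, against 15.8 in the Ccl17- and Mmp12-led class. Ctsl, a protease that trims CD74 in thymic epithelium, stood at 3.74 (3.40 to 4.10) and 5.87 (5.57 to 6.19) in the 2 clusters. Spi1 and Irf8 stood at 0.0169 and 0.0592 in the Plvap- and Vwf-led cluster, against 4.26 and 3.92 in the Ccl17- and Mmp12-led class. H2-DMb2, H2-Oa and H2-Ob had 4, 3 and 5 UMIs in the Plvap- and Vwf-led cluster, against 137 of H2-DMb1, with the same uncertainty in the split.

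Cells were also divided by whether they had a UMI of Cdkn2a, the gene that the reporter follows. In endothelial-like cells the summed class II level was 5.58 (5.27 to 5.91) with a Cdkn2a UMI (328 cells) and 10.6 (10.1 to 11.1) without (276 cells). Subtypes and depths were unevenly divided: Cdkn2a was found in 35.3% of the Plvap- and Vwf-led cluster against 60.6% of the Car4-led cluster, and cells with it had a median of 5746.5 UMIs against 4627.5. Within the Plvap- and Vwf-led cluster the levels were closer, at 18.5 (17.4 to 19.7) with and 22.4 (21.3 to 23.6) without, although cells with it were deeper (medians of 9343 and 5073 UMIs), and in library 2 they were 20.4 and 20.6. Within the Car4-led cluster they were 0.810 with and 2.03 without, and in library 2 they were 0.930 and 0.539. The highest cell of the Car4-led cluster, in library 1 and without a Cdkn2a UMI, held 88 of its 297 class II UMIs and 9 of Cd79a. The split was not repeated without that cell. Interstitial-macrophage-like cells had 241 (234 to 248) with and 389 (384 to 394) without, B-cell-like cells 218 (212 to 224) and 256 (251 to 261), and Ccl17- and Mmp12-led cells 804 (785 to 824, 7 cells) and 706 (700 to 713). The order was thus not the same in every class, and a missing UMI does not show that a cell lacked Cdkn2a.

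Genes outside the pathway that came closest to the summed class II level over the 13 clusters were Cyp4f18 (Pearson r 0.89), Slamf9 (0.85), Fgd2 (0.83), Ebi3 (0.82), Gm26522 (0.82), Plbd1 (0.82), Rnase6 (0.82), Gm6377 (0.81), Fcgr2b (0.81) and Dnase1l3 (0.81). The clusters share 2 libraries and differ in depth, so these are descriptions of 13 points. In the Plvap- and Vwf-led cluster none of these genes had more than 5 UMIs, against 2431 class II UMIs. Slamf9 belongs to a family of leukocyte surface receptors and Fcgr2b is the inhibitory Fc receptor. Among the members themselves r with the sum ran from 0.79 for H2-DMb1 to 0.995 for Cd74. Each member is part of that sum, which raises its r by construction.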

How the data were processed

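Cells were sorted from mouse lung and sequenced with the 10x 3′ v3 kit, per the labels' protocols, and processed with Cell Ranger 3.0.2 and mm10, per the submitters' processing notes. How genes were annotated, cells filtered and doublets handled is not stated there. The deposited values are natural log values of 1 plus UMIs per 10000 UMIs of a cell, as the authors' table itself shows. Back-transformed, they were whole UMIs (largest deviation 1.78e-10), which were used for all levels. Cells had a median of 5828.5 UMIs.

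Cells were clustered with scanpy 1.11.5 and igraph 0.11.9 (2000 variable genes without the members and pathway genes, 20 components, 15 neighbours, Leiden resolution 0.5), and classes were named by markers. Cells with at least 3 markers, at 2 or more UMIs each, of each of 2 or more unrelated lineages were counted, not removed. The lineages scored were endothelial, B, T, interstitial macrophage, mesenchymal and epithelial. Intervals are exact Poisson, for shares Clopper-Pearson and for ratios exact conditional, at 95% (scipy 1.17.1). A count of 0 allows up to 3 UMIs. Genes in at least 1% of cells were compared at 2-fold with 0.1 added. With 1 group whose cells could not be tied to a sample, no p-value was computed. The fold rule was checked on simulated pooled counts, without differences between single cells. Only genes more abundant in endothelial-like cells than Ciita, H2-DMa and H2-DMb1 were simulated, so the check does not cover these 3 members. Members, lists and markers were chosen with earlier results of these data known. Pathway genes were to be named by the largest ratios among those in at least 5% of cells, and genes alike in pattern by the 10 highest correlations.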

Additional observations from a re-analysis of the deposited data

How the results depend on the processing

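Of 109 alternative values for 19 results, 57 stayed within their counting interval or within 1.5 times the count, 51 moved and 1 reversed. Values are UMIs per 10000 unless said otherwise. Cd74 in B-cell-like cells (140) was 276 in the single such cell of library 2, 152 as a mean over cells and 135.6 in cells with at least 1500 genes. Cd74 in interstitial-macrophage-like cells (157) depended most on the clustering: it was 152.3 at resolution 1.0, 133 with the class II genes kept among the variable genes, 265 with 30 components, 116 without cells of 2 or more lineages, 189 with cells assigned by markers, 164 and 121 in libraries 1 and 2, 167 as a mean over cells, 153.7 without the highest cell and 255 in cells with at least 1500 genes.

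For endothelial-like cells as a whole, Cd74 (3.14), the summed level (7.65) and the median percentage of the outside level (6.28%) were 2.80, 7.11 and 5.85% without cells of 2 or more lineages, 4.24, 9.84 and 8.88% with cells assigned by markers, 3.65, 8.91 and 7.79% in library 1, 1.93, 4.68 and 2.27% in library 2, and 2.53, 6.16 and 5.33% as means over cells. Without the highest cell Cd74 was 2.94 and the sum 7.33. The ratio of the Plvap- and Vwf-led to the Car4-led cluster (16.5) was 22.6 without cells of 2 or more lineages, 14.1 and 23.7 in libraries 1 and 2, 19.6 as a mean over cells and 22.4 without the highest cell. The ratio of Vwf-assigned to Car4-assigned cells (5.09) was 6.05 without cells of 2 or more lineages, 3.42 with endothelial cells assigned by markers, 10.6 in library 2 and 9.26 as a mean over cells. When endothelial-like cells were clustered alone, the ratio of the cluster with most Vwf to that with most Car4 was 25.1, but the Vwf-richest cluster held Car4 and Gpihbp1 as well and is not a Vwf group. The Vwf- to Car4-assigned ratio was 0 where the other 2 genes had to be at 0 UMIs, which left 1 Vwf cell of 4241 UMIs.

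With a pseudocount of 1, pathway genes higher than in endothelial-like cells numbered 10 of 16 in interstitial-macrophage-like cells, 11 of 17 in Ccl17- and Mmp12-led cells and 9 of 18 in B-cell-like cells. In the Plvap- and Vwf-led over the Car4-led cluster the pathway count of 1 became 0 with a pseudocount of 1 and 10 with 0.01. Thinning to 2500 UMIs gave shares of 81.1% for 88.0% and 16.8% for 27.8%, and 42.4% for the 66.7% of cells with 5 or more UMIs. The ratio by Cdkn2a (0.527) was 0.865 in library 2, 0.825 within the Plvap- and Vwf-led and 0.3995 within the Car4-led cluster. The last value includes the cell without a Cdkn2a UMI that held 88 of the 297 class II UMIs of the Car4-led cluster. Apart from these constructions the cause was not tested. No paired analysis was possible because there is 1 labelled group and the library numbers could not be tied to a sample or replicate.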
